A study of Mus musculus with 12 samples.

Results

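The genes of nitric oxide and cyclic GMP (cGMP) signaling were followed in the amygdala of mice that differed in anxiety-like behavior. The set held 9 genes taken by symbol, and 8 of them had a row of their own among the 47729 genes of the deposited table: Nos1, Nos3, Nos1ap, Gucy1a1, Gucy1b1, Prkg1, Prkg2 and Pde5a. The ninth, Pde2a, had no row under its identifier in the GENCODE M21 annotation and is described with an overlapping gene at the end of the levels. All animals were untreated female C57/BL6 mice, an inbred strain, tested as age-matched young adults, and each gave 1 RNA library of bilateral amygdala biopsy tissue. The groups were 3 less anxious mice (mice 3, 7 and 12), 4 anxious mice (1, 4, 8 and 11) and 4 more anxious mice (2, 6, 9 and 10). No allele, drug or fear training set these groups apart: they are a state predicted by the study from the second principal component (PC2) of the same RNA profiles, cut into tertiles. A comparison of expression between the groups is therefore not independent of the expression that made them. Nor does a group name give the behavior of each mouse. More anxious mouse 6 had the highest time in light (46.6%), distance in light (41.9%) and open-arm time (29.2%) of the 11 mice. The other more anxious mice, 2, 9 and 10, had open-arm times of 2.33%, 4.30% and 3.25%. The light/dark box, the elevated plus maze and the three-chamber social test gave 7 behavior measures per mouse that were recorded apart from the RNA. Mouse 5 has no group and stayed out of every comparison reported here, though it was added to the behavior fits as an alternative setting.

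Nitric oxide is a gas that neurons and blood vessels make from arginine, and it acts by diffusion rather than through a synaptic vesicle. Its main receptor is soluble guanylyl cyclase, a dimer of an alpha and a beta subunit that turns GTP into cGMP when nitric oxide binds its heme. cGMP then activates protein kinases and ion channels and is removed by phosphodiesterases, and in the amygdala this chain is known for its part in synaptic plasticity and fear learning.

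Among the 8 members with a row, the 2 cyclase subunits were neighbours in the genome and had the highest level per length. Their promoter windows are therefore printed first. In GENCODE M21 (build GRCm38) Gucy1b1 lay on chromosome 3 from 82032006 to 82074689 and Gucy1a1 from 82092427 to 82145789, both protein coding, both on the minus strand and 17737 bases apart. The window of Nos1ap is also shown (gene on chromosome 1, 170302668 to 170589861, minus strand). Each window is the RefSeq sequence (GRCm38.p6) from 250 bases before to 50 bases after a transcription start, and capitals mark GC boxes (GGGCGG) and CCAAT boxes (CCAAT) read on either strand.
Gucy1b1 (chr3:82074662-82074961, minus strand): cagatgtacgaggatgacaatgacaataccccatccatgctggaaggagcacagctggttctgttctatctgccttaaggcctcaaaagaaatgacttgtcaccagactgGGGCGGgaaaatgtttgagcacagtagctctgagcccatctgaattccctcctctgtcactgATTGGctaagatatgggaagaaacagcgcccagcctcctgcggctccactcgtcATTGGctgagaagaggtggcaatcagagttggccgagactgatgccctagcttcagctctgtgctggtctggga
Gucy1a1 (chr3:82145601-82145900, minus strand): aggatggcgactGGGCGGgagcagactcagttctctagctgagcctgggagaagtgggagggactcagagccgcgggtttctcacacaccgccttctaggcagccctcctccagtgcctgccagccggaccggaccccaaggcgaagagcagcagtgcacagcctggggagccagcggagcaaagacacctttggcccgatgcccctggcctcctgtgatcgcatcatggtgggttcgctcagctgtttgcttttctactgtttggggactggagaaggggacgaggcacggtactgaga
Nos1ap (chr1:170589800-170590099, minus strand): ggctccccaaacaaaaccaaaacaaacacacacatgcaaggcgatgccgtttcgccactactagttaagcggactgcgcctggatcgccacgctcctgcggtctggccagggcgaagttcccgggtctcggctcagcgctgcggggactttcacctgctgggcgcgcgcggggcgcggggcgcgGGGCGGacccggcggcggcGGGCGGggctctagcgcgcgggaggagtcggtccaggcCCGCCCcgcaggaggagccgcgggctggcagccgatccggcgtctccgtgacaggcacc
The Gucy1b1 window held 1 GC box and 2 CCAAT boxes, both in the reverse orientation, the Gucy1a1 window 1 GC box and no CCAAT box, and the Nos1ap window 3 GC boxes. The share of G and C was 52.3% for Gucy1b1, 62.3% for Gucy1a1 and 71.7% for Nos1ap, against a median of 52.7% over 32817 windows of the same length. RefSeq windows were found for 7 of the 9 genes, all but Nos3 and Prkg2, and where a gene had several, that nearest to its annotated start was read. The single Nos1 window starts 85807 bases from the annotated start of the gene. A GC box was present in 5 of the 7 windows and in 35.6% of all windows, and a CCAAT box in 2 of 7 (Gucy1b1 and Prkg1) and in 37.4% of all. None of the 7 held the TATA box TATAAA, the cAMP response element TGACGTCA or the AP-1 letters TGANTCA, which 13.6%, 1.79% and 7.81% of all windows held. These are matches of letters, not mapped sites.

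Depth was similar across the libraries. Totals ran from 31745630 to 45142355 estimated counts in the 11 mice, with 26378 to 28196 genes detected, and the lowest count of any member in any of these mice was 157 (Prkg1). Levels are given as CPM, that is counts scaled to library size, after TMM scaling over the 11 mice, and levels of different genes are compared only as CPM per kilobase (kb) of exon. Of 12 lists of cell type markers, 3 had a summed CPM whose ranges in the less and the more anxious group were apart. Among single genes with a mean of at least 1 CPM, 10% were apart in this way, and the groups were made from the same expression. Endothelial markers were at 118 to 169 CPM in less anxious and 90.9 to 111 in more anxious mice. Astrocyte markers were at 1063 to 1298 and 795 to 1011, and pituitary markers at 2.11 to 3.62 and 1.17 to 1.72. For the pituitary list, anxious mice 1, 4, 8 and 11 were at 5.06, 55.7, 1.88 and 13.8 CPM. No listed marker was at 0 in all mice. Central amygdala markers ran from 309 to 829 CPM within the less anxious group alone and from 286 to 592 in more anxious mice. In such bulk tissue, fewer cells of a type, less RNA per cell and a different dissection cannot be told apart.

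The beta subunit of the cyclase stood highest per length and varied least. Over the 11 mice the level was 40.8 ± 4.62 CPM per kb for Gucy1b1, 17.3 ± 3.35 for Gucy1a1, 9.94 ± 2.13 for the neuronal synthase Nos1, 4.07 ± 1.10 for the kinase Prkg2 and 3.67 ± 0.915 for the adaptor Nos1ap (SD, n = 11). The endothelial synthase Nos3 was at 1.68 ± 0.354, the phosphodiesterase Pde5a at 0.630 ± 0.168 and the kinase Prkg1 at 0.629 ± 0.178 CPM per kb. Neighbours in this order were further apart than the sum of their SDs except Prkg2 and Nos1ap, and Pde5a and Prkg1. Within a mouse, Gucy1a1 stood at 0.422 ± 0.0508 of Gucy1b1 per length (range 0.344 to 0.515), Nos3 at 0.179 ± 0.0635 of Nos1 and Prkg1 at 0.164 ± 0.0640 of Prkg2. The coefficient of variation over mice was 11.3% for Gucy1b1, between 19.3% and 28.4% for the other 7 genes, and 14.3% at the median of 15891 genes with a mean of at least 1 CPM. Among genes of a similar mean level, the median was 11.1% for the neighbours of Gucy1b1, 10.9% for those of Nos1 (21.4% for Nos1 itself) and 12.8% for those of Prkg2 (27.1%).

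**Figure D1:**
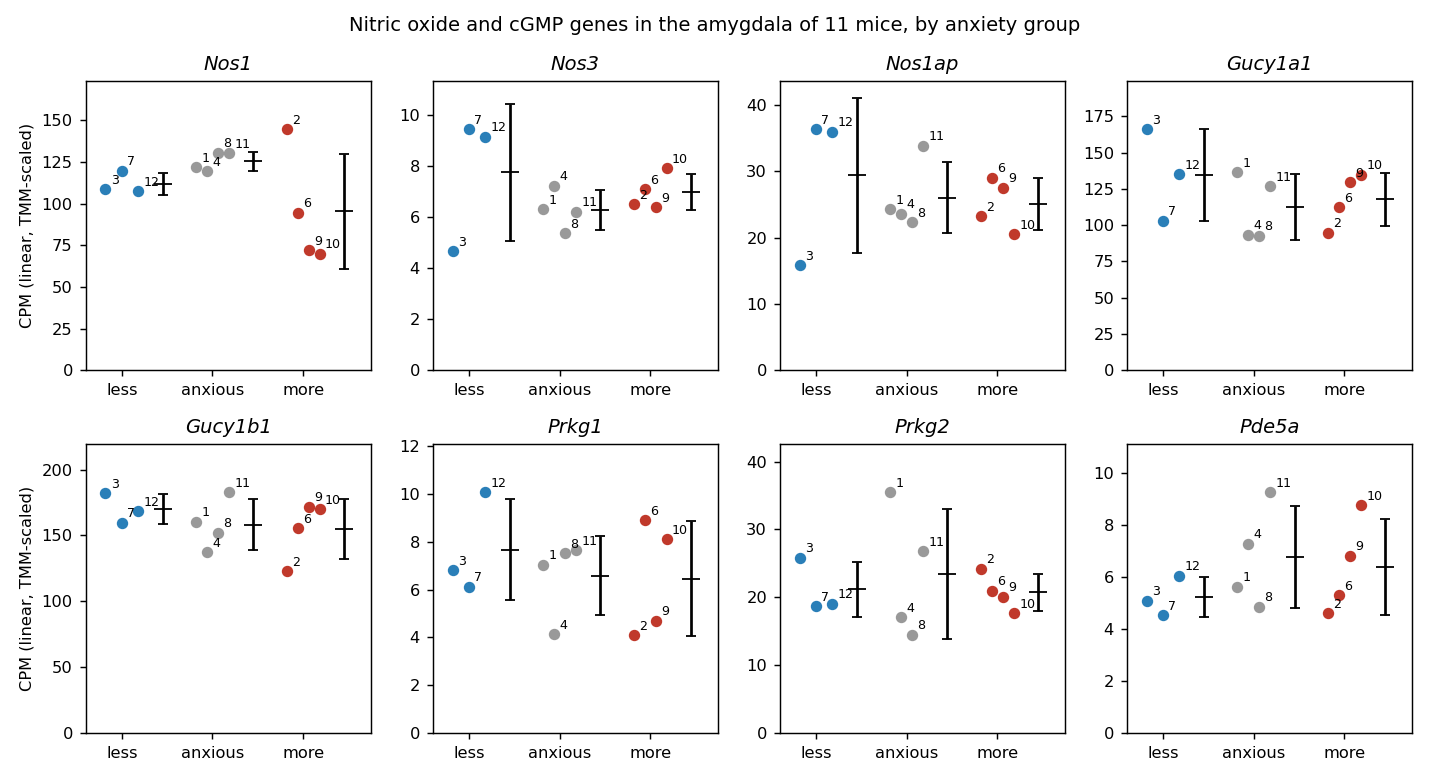
Level of 8 genes in CPM (linear axis from 0) in each mouse of the less anxious, anxious and more anxious groups. Points are mice with their number, and the bar beside them is the group's mean with its SD. Nos1 in more anxious mice ran from 69.9 to 145 CPM, with mouse 2 above the other 3.

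For the question of whether the pathway differed with predicted anxiety, none of the 8 genes passed the test between groups. edgeR's quasi-likelihood test over all 3 groups called 0 of 8 members (smallest adjusted p = 0.878), where 0.00742% of all 26963 genes tested were called. It gave 0 of 8 members an unadjusted p under 0.05, against 6.35% of all genes. DESeq2's likelihood ratio test also called 0 of 8 (smallest adjusted p = 0.657), against 0.571% of all genes. The values of more and less anxious mice were apart without overlap for 0 of 8 members, against 10% of the genes with a mean of at least 1 CPM. The median difference between more and less anxious mice was -0.13 on the log2 scale over the 8 members, with 6 of 8 lower, and 0.0036 over all genes tested. Of all genes tested, 13346 of 26963 were lower, and 8137 of 15891 with a mean of at least 1 CPM.

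The synthases came first by role. Nos1 makes nitric oxide in neurons and is anchored near NMDA receptors. Its gene lies on chromosome 5, 117781032 to 117958840, on the plus strand. Its level was 109, 120 and 107 CPM in less anxious mice 3, 7 and 12. In anxious mice 1, 4, 8 and 11 it was 122, 119, 131 and 130 CPM. More anxious mice 2, 6, 9 and 10 were at 145, 94.6, 72.0 and 69.9 CPM. Mice 6, 9 and 10 were thus below every mouse of the other groups, while mouse 2 was above every other mouse. The difference between more anxious and anxious mice was -0.40 (SE 0.19) and that between more and less anxious mice -0.28 (SE 0.21, 95% interval -0.74 to 0.18) on the log2 scale, and neither passed. Single mice moved both differences. Without mouse 10 they were -0.29 to anxious and -0.15 to less anxious mice, and without mouse 9 -0.30 and -0.16. Without mouse 2, the difference was -0.66 (SE 0.096) to anxious and -0.53 (SE 0.10) to less anxious mice, edgeR's adjusted p of the test over all 3 groups was 0.0671 among 26579 genes, and Nos1 was in place 16 by p, still not called. In that fit 3 genes were called and 8.01% had an unadjusted p under 0.05. Leaving out the mouse that opposed the rest of its group lowers the spread, so this p and place do not count as support. Mouse 2 had the lowest open-arm time (2.33%) and the fewest maze entries (6) of the 11 mice. Markers of the long-range Nos1 interneuron (Sst, Npy, Chodl and Tacr1) summed to 536, 440, 428 and 229 CPM in mice 2, 6, 9 and 10, against 288 to 359 in less anxious and 375 to 489 in anxious mice. Mouse 2 was thus the highest and mouse 10 the lowest of the 11 for this list, as for Nos1, while mice 6 and 9 were well above the less anxious mice for the list and below them for Nos1. The sum follows the most abundant genes of the list, single markers were not read, and it is not a count of Nos1 cells. The part of this list in the Nos1 values was not tested.

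Nos3 is the synthase of blood vessel lining, on chromosome 5 from 24364810 to 24384474, plus strand. It stood at 4.67, 9.46 and 9.17 CPM in less anxious mice 3, 7 and 12. Anxious mice 1, 4, 8 and 11 were at 6.32, 7.25, 5.37 and 6.22 CPM, and more anxious mice 2, 6, 9 and 10 at 6.52, 7.10, 6.41 and 7.93 CPM. The less anxious group held both the lowest mouse and the highest pair, so it spanned the other groups. The difference between more and less anxious mice was -0.17 (SE 0.21, 95% interval -0.62 to 0.27) on the log2 scale. It ran from -0.41 (SE 0.16) without mouse 3 to -0.04 (SE 0.26) without mouse 7 and -0.01 (SE 0.23) without mouse 12, and the adjusted p over the 3 groups was 0.552 or more with any mouse left out. The summed endothelial markers were at 118, 169 and 130 CPM in mice 3, 7 and 12, with mouse 3 the lowest of these as for Nos3, and at 90.9 to 111 CPM in the more anxious group, where Nos3 had a mean of 6.99 CPM against 6.29 CPM in anxious mice. Their part in the Nos3 values was not tested. Antisense Gm15587 covered 25.2% and Atg9b on the opposite strand 7.12% of the exon bases of Nos3. The libraries were stranded, but the strand setting of the counting was not given in the sources used here, so Nos3 carries that limit.

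Nos1ap encodes an adaptor that binds the neuronal synthase and links it to other partners. It was at 15.9, 36.4 and 36.0 CPM in less anxious mice 3, 7 and 12. Anxious mice 1, 4, 8 and 11 had 24.3, 23.7, 22.3 and 33.9 CPM, and more anxious mice 2, 6, 9 and 10 had 23.3, 29.1, 27.5 and 20.5 CPM. As for Nos3, mouse 3 was the lowest of all 11 and mice 7 and 12 the highest. The difference between more and less anxious mice was -0.25 (SE 0.27, 95% interval -0.85 to 0.35) on the log2 scale. It ran from -0.53 (SE 0.17) without mouse 3 to -0.08 (SE 0.33) without mouse 7 and -0.05 (SE 0.29) without mouse 12, and the adjusted p over the 3 groups was 0.598 or more with any mouse left out. Gm7694, on the same strand, shares 2.36% of its exon bases.

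The subunits of the nitric oxide receptor had overlapping values in all groups. Gucy1a1, the alpha subunit, was at 166, 103 and 135 CPM in less anxious mice 3, 7 and 12. It was at 136, 93.4, 92.6 and 127 CPM in anxious mice 1, 4, 8 and 11, and at 94.6, 113, 130 and 135 CPM in more anxious mice 2, 6, 9 and 10. All 3 groups overlapped, with mouse 3 the highest. Gucy1b1, the beta subunit that holds the heme, was at 182, 160 and 169 CPM in mice 3, 7 and 12. It was at 160, 137, 152 and 183 CPM in mice 1, 4, 8 and 11, and at 123, 155, 172 and 170 CPM in mice 2, 6, 9 and 10. Mouse 2 was the lowest of the 11 for the beta subunit and among the lowest 3 for the alpha subunit. More minus less anxious was -0.08 (SE 0.12, 95% interval -0.32 to 0.17) for Gucy1a1 and -0.10 (SE 0.11, 95% interval -0.34 to 0.15) for Gucy1b1 on the log2 scale. These were the narrowest intervals of the 8 genes. Without the covariate the differences were -0.19 and -0.13, and without mouse 2 they were 0.0057 and -0.0016.

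The kinases that cGMP activates had the largest spread between mice, 28.4% for Prkg1 and 27.1% for Prkg2. Prkg1 encodes the soluble kinase (chromosome 19, 30564489 to 31765033, minus strand). It was at 6.81, 6.12 and 10.1 CPM in mice 3, 7 and 12, at 7.04, 4.13, 7.52 and 7.64 CPM in mice 1, 4, 8 and 11, and at 4.10, 8.90, 4.69 and 8.12 CPM in mice 2, 6, 9 and 10. The more anxious mice fell into a low and a high pair, and the groups overlapped, with a difference of -0.27 (SE 0.32, 95% interval -0.97 to 0.44) between more and less anxious mice on the log2 scale. It was -0.52 without mouse 7 and -0.02 without mouse 12. Prkg2 encodes the membrane-bound kinase (chromosome 5, 98929773 to 99037351, minus strand). It was at 25.8, 18.6 and 19.1 CPM in mice 3, 7 and 12, at 35.5, 17.0, 14.5 and 26.7 CPM in mice 1, 4, 8 and 11, and at 24.2, 20.9, 20.1 and 17.6 CPM in mice 2, 6, 9 and 10. The anxious group alone spanned the whole range, and the difference between more and less anxious mice was 0.09 (SE 0.23, 95% interval -0.43 to 0.60). That sign turned with the covariate left out (-0.0327).

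Of the phosphodiesterases, Pde5a breaks down cGMP with high selectivity and is the target of sildenafil (chromosome 3, 122728947 to 122859374, plus strand). It was at 5.09, 4.52 and 6.05 CPM in mice 3, 7 and 12, at 5.63, 7.28, 4.85 and 9.27 CPM in mice 1, 4, 8 and 11, and at 4.60, 5.30, 6.82 and 8.76 CPM in mice 2, 6, 9 and 10. The highest 4 values were in anxious and more anxious mice, but both groups reached down into the less anxious range. The difference between more and less anxious mice was 0.35 (SE 0.22, 95% interval -0.12 to 0.83) on the log2 scale, 0.19 without mouse 10 and 0.47 without mouse 2. The difference between anxious and less anxious mice was 0.46 (SE 0.22, 95% interval -0.02 to 0.93).

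Pde2a, whose enzyme cGMP itself stimulates, could not be read under its own identifier and is not analysed here as such. A row that GENCODE M21 names Gm45837 (chromosome 7, 101410886 to 101512819, plus strand) has 3955 of its 4139 exon bases inside exons of Pde2a on the same strand. Which of the 2 genes gave these reads cannot be told apart, and since the annotation release behind the counts was not given in the sources used here, the row may carry the name Pde2a in that release. Gm45837 had a mean level of 459 ± 50.5 CPM (SD) in the 3 less anxious mice, of 467 ± 30.8 CPM in the 4 anxious mice and of 442 ± 16.6 CPM in the 4 more anxious mice. Over the 11 mice, Gm45837 was at 110 ± 7.66 CPM per kb (SD), above each of the 8 members. It varied by 6.95% over mice, less than any of the 8 members, and more minus less anxious was -0.06 (SE 0.098) on the log2 scale.

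**Figure D2:**
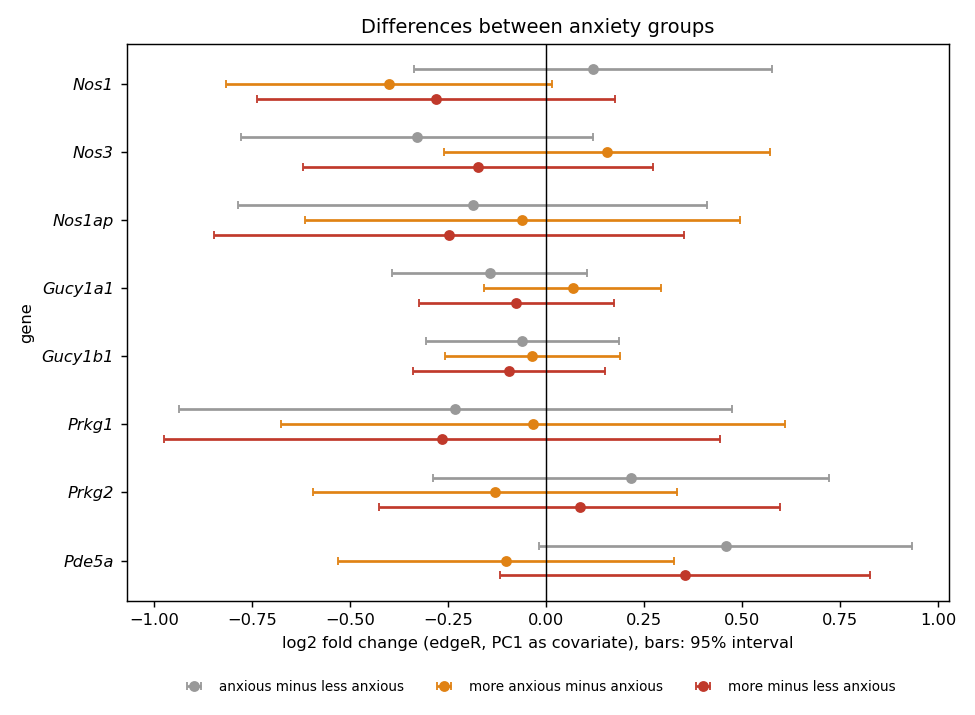
Log2 fold change of 8 genes (horizontal axis) for 3 contrasts between anxiety groups, from the edgeR fit with the first principal component as covariate. Points are estimates and bars 95% intervals; every interval includes 0, and those of Gucy1a1 and Gucy1b1 are the narrowest.

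Behavior measured apart from the RNA gave the second question, whether any of these genes followed a test score. A slope is the change in log2 level per SD of the measure. No member passed adjustment for any of the 7 measures by edgeR or by DESeq2, so every slope below is a value and not a call. edgeR's adjusted test called 0.00742% of all genes for time in light, 0% for distance in light, 0% for open-arm time, 0% for maze entries, and 0.015%, 0.0111% and 0.0223% for the social ratio at 3, 5 and 10 min. DESeq2's called 0.0435%, 0.0753%, 0.125% and 0.13% for the first 4 and 0.47%, 0.125% and 0.322% for the social ratio. At an unadjusted p under 0.05 by edgeR, the members numbered 0 of 8 for time in light (3.55% of all genes), 1 of 8 for distance in light (5.8%), 1 of 8 for open-arm time (5.84%) and 1 of 8 for maze entries (6.97%). They numbered 3 of 8 for the social ratio at 3 min (7.65%), 4 of 8 at 5 min (6.56%) and 4 of 8 at 10 min (8.05%). The 3 social ratios come from the same session and are not separate evidence.

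The social ratio sets time in the box beside a stranger mouse against time in the wider zone, and the genes behind its counts were Nos3, Nos1ap and the cyclase subunits. At 10 min the slope was -0.21 (SE 0.078, adjusted p = 0.516) for Nos3 and -0.24 (SE 0.090, adjusted p = 0.533) for Nos1ap. For the cyclase it was 0.17 (SE 0.062, adjusted p = 0.518) for Gucy1a1 and 0.11 (SE 0.046, adjusted p = 0.583) for Gucy1b1. Nos3 and Nos1ap thus had lower values, and both receptor subunits higher values, where the ratio was higher. Nos1, the synthase that the adaptor binds, had a slope of -0.06 (SE 0.093). Mouse 3 had by far the highest ratio, 2.62 against 0.495 to 1.58 in the others, and was the lowest mouse for Nos3 and Nos1ap and the highest for Gucy1a1. Without mouse 3 the slopes at 10 min were -0.12 for Nos3, -0.084 for Nos1ap and 0.076 for Gucy1a1, and 0 of 8 members had an unadjusted p under 0.05. The lowest slope of Gucy1b1 with any mouse left out was 0.074, without mouse 2, the mouse with the lowest ratio. With the first principal component of expression (PC1) as a covariate, the cyclase slopes were 0.064 for Gucy1a1 and 0.075 for Gucy1b1, while those of Nos3 and Nos1ap were -0.23 and -0.26.

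**Figure D3:**
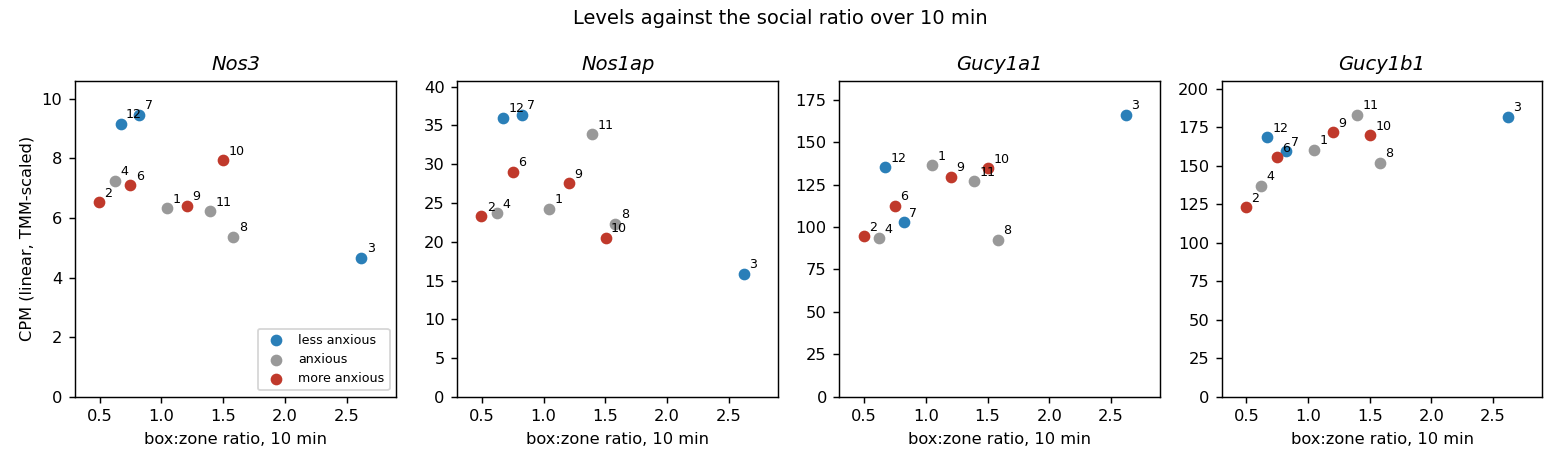
Level in CPM (vertical axis, linear from 0) against the box:zone ratio over 10 min (horizontal axis, no unit) for Nos3, Nos1ap, Gucy1a1 and Gucy1b1, 1 numbered point per mouse colored by group. Mouse 3 stands alone at a ratio of 2.62.

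Prkg1 had the largest slopes of the set. It was higher in mice that made more maze entries, 0.32 per SD (SE 0.087, edgeR's adjusted p = 0.576, DESeq2's adjusted p = 0.106), and that covered more of their distance in light, 0.30 (SE 0.098, adjusted p = 0.827). The mice with the fewest entries, mouse 2 with 6 and mouse 1 with 15, had 4.10 and 7.04 CPM, and those with the most, mouse 12 with 42 and mouse 6 with 36, had 10.1 and 8.90 CPM. The slope on entries ran from 0.23 (without mouse 2) to 0.39 (without mouse 1) with 1 mouse left out, and was 0.33 with PC1 as a covariate. The membrane-bound kinase Prkg2 had a slope of the other sign on entries, -0.18 (SE 0.092, adjusted p = 0.75). Nos1ap had a slope of 0.19 (SE 0.087, adjusted p = 0.83) on open-arm time, and Nos3 one of 0.091 (SE 0.086). Nos1 had its largest slope on the social ratio at 3 min, -0.19 (SE 0.092, edgeR's adjusted p = 0.676, DESeq2's adjusted p = 0.47), where mouse 4 had no value and 10 mice entered.

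**Figure D4:**
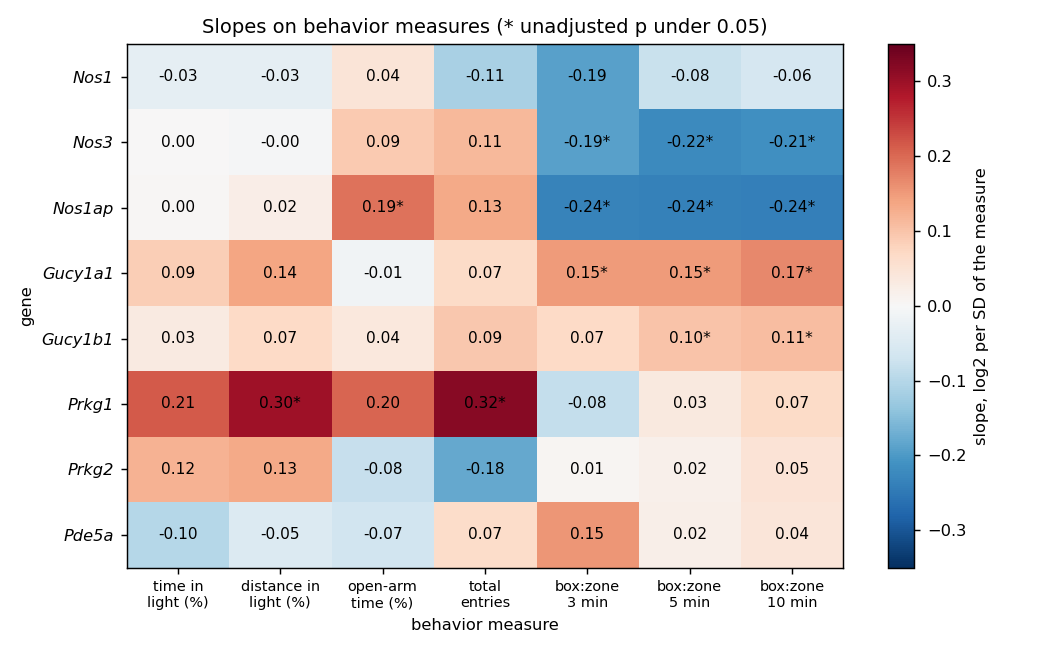
Slope of log2 level per SD of each of 7 behavior measures (columns) for 8 genes (rows), with color and printed values on the same scale. Stars mark an unadjusted p under 0.05; no slope passed adjustment over all genes, and the largest are those of Prkg1 on maze entries (0.32) and distance in light (0.30).

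Of 28 pairs over the 11 mice, 17 had a positive Pearson r of log2 CPM, and the median r was 0.0965. The subunits of the cyclase gave the highest value. Gucy1a1 and Gucy1b1 had r = 0.803 (two-sided permutation p = 0.00209, adjusted p = 0.0585 over 28 pairs) and Spearman's rho = 0.727 (permutation p = 0.0143, adjusted p = 0.401). Without mice 4 and 8, the 2 farthest from the median of Gucy1a1, r was 0.788, and after a linear fit of both genes on PC1 it was 0.708. Nos3 and Nos1ap followed with r = 0.696 (permutation p = 0.0173, adjusted p = 0.242) and rho = 0.509 (permutation p = 0.115, adjusted p = 0.616), and this rested on mice 7 and 12, without which r was 0.423. Nos1 and its adaptor Nos1ap had r = 0.109 (permutation p = 0.748, adjusted p = 0.892) and rho = -0.00909 (permutation p = 0.99, adjusted p = 1). Nos1 had negative values with both cyclase subunits, -0.449 with each (permutation p = 0.17 with Gucy1a1 and 0.16 with Gucy1b1, adjusted p = 0.623 for both). No pair passed adjustment. All values come from the same 11 libraries, with the same scaling.

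**Figure D5:**
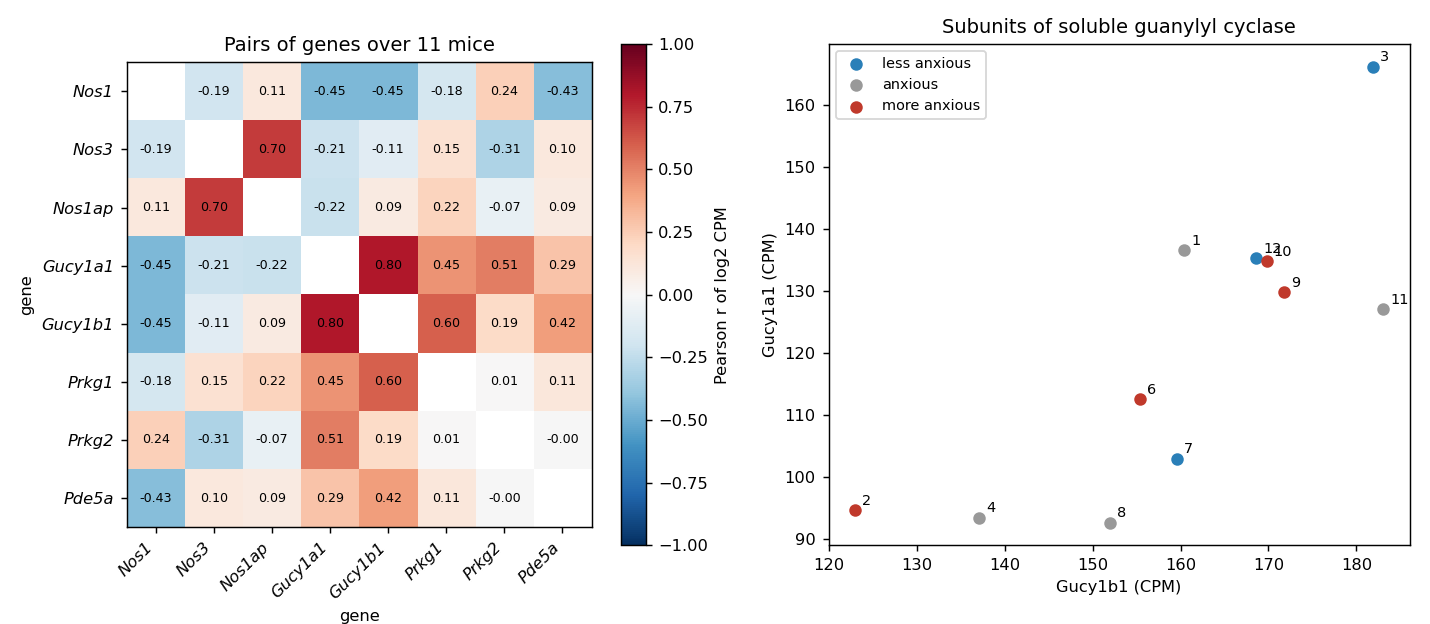
Left, Pearson r of log2 CPM for each pair of 8 genes over 11 mice; right, Gucy1a1 against Gucy1b1 in CPM, 1 numbered point per mouse colored by group (axes do not start at 0). The cyclase subunits have the highest r of the 28 pairs, 0.803.

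The wider pathway was read from a list of 45 genes that regulate the synthases, supply their cofactor and arginine, or make, degrade or respond to cGMP. Of these, 44 were tested, and none was called between the groups by edgeR or DESeq2 or for any behavior measure by edgeR. An unadjusted p under 0.05 over the 3 groups was given to 6 of 44, against 6.35% of all genes tested, with 4 higher and 2 lower in more than in less anxious mice. The median difference was -0.03 on the log2 scale. The adjusted p-values below are those of the test over all 3 groups, while each difference is that between more and less anxious mice. Vasp, an actin-binding target of the cGMP kinases, was at 5.78 to 8.86 CPM in less, 10.1 to 12.4 in anxious and 8.27 to 12.8 in more anxious mice, a difference of 0.49 (SE 0.17, 3-group adjusted p = 0.614). Pde1c, a calcium-activated phosphodiesterase, was at 9.53 to 19.2 CPM in less and 6.21 to 11.2 in more anxious mice (-0.80, SE 0.28; edgeR's adjusted p = 0.634, DESeq2's 0.0772). Nppc, the natriuretic peptide that drives a membrane-bound guanylyl cyclase, was at 3.44 to 4.03 CPM in less and 4.31 to 7.03 in more anxious mice (0.67, SE 0.20; adjusted p = 0.645). Nosip, a protein that binds the endothelial synthase, was at 35.9 to 40.8 CPM in less and 45.6 to 47.7 in more anxious mice (0.26, SE 0.088; adjusted p = 0.71). For the last 2 the less and more anxious groups did not overlap, but these genes were picked by the p of this same test. Elsewhere in the list the 2 groups were also apart for Dynll1, at 191 to 253 CPM in less and 274 to 304 in more anxious mice. They were apart for Ddah1 too, at 101 to 113 and 83.2 to 94.3 CPM. Of all genes with a mean of at least 1 CPM, 10% were apart in this way. By family, an unadjusted p under 0.05 was given to 1 of 8 regulators of the synthases, 1 of 5 genes of the tetrahydrobiopterin cofactor, 0 of 7 of arginine supply, 1 of 7 cyclases and natriuretic peptides, 2 of 8 other phosphodiesterases, 1 of 8 effectors and 0 of 1 for nitrosothiol removal.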

How the data were processed

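A single run sequenced the 12 amygdala samples, each as 1 TruSeq stranded mRNA library. According to the methods, reads were trimmed with cutadapt where necessary and aligned to mm10 with STAR for quality checks. Expression was quantified with Salmon, and transcript abundances were collapsed to genes. The authors deposited the resulting estimated counts as whole numbers without normalization, for 47729 genes, of which 47310 (99.1%) had a GENCODE M21 entry. The annotation release and strand setting of the counting were not given in the sources used here.

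From these counts, edgeR 4.0.16 (R 4.3.3) fitted genes with at least 10 reads in total, with TMM factors, robust quasi-likelihood and the PC1 score as covariate for the 3 groups, and with no covariate for each standardized behavior measure. Benjamini-Hochberg adjusted p-values over all genes tested were called under 0.05, and DESeq2 1.42.0 was the alternative tool. The p-values of the fits set a difference or slope against the spread between mice, 11 of them, or 10 for the social ratio at 3 min. Intervals are given at 95%. Because the groups came from the same expression, p-values and intervals of the group test do not hold their nominal level. log2 CPM used a prior count of 2, and correlations 100000 permutations. Other settings covered size factors, filters, covariate, group coding, rank of a measure, mouse 5 and each mouse left out. The edgeR fit and the permutation test were run on simulated data with large changes and strong correlations. These changes were larger than any difference between more and less anxious mice in the members. Power for differences as small as those was not tested.

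The members and lists were chosen with earlier results of these data known. Named genes were all members, the 4 genes of the wider list with the smallest unadjusted p and a mean of at least 1 CPM, and the 2 genes most alike each member. Since Pde2a had no row, 8 genes and 28 pairs were analysed. Gm45837, the correlation after a fit on PC1 and the naming of Dynll1 and Ddah1 were added after seeing the data.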

Additional observations from a re-analysis of the deposited data

Results flagged for a closer look

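Of 16 sets of values (8 genes in the anxious and in the more anxious group), 2 held a mouse far from the others by Dixon's criterion, which chance alone meets in about 1 of 20 sets. Nos1ap was highest in anxious mouse 11, at 33.9 CPM against 22.3 to 24.3 in the other 3. Prkg1 was lowest in anxious mouse 4, at 4.13 CPM against 7.04 to 7.64. The high Nos1 value of more anxious mouse 2 did not meet the criterion.

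Mouse 5, which has no group, entered none of the reported comparisons, and all 8 genes were present in it. Its library stood apart, with 23768 genes detected against 26378 to 28196 in the others, and the study left it out after a principal component analysis. Its estimated counts were 4010 for Nos1, 123 for Nos3, 884 for Nos1ap, 4205 for Gucy1a1, 6078 for Gucy1b1, 224 for Prkg1, 577 for Prkg2 and 363 for Pde5a. Scaled together with the other 11 libraries, Nos3 was at 3.74 CPM, Pde5a at 11.03 CPM and Gucy1b1 at 185 CPM, the lowest value of Nos3 and the highest of Pde5a and Gucy1b1 in the 12 mice.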

How the results depend on the processing

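The count of members called stayed at 0 for the groups and for each measure under every setting run. The count over all genes did not: it was 2 as reported, 9 without a filter, 0 with a filter of 1 CPM in 3 mice, 197 with DESeq2's likelihood ratio test, 0 without the covariate, 22 with group order as a number, and 0 to 4 with 1 mouse left out. The difference between more and less anxious mice changed sign for Prkg2 without the covariate (-0.0327) and with 1 mouse left out (-0.0107 to 0.215, negative without mouse 2 or 6), and for Gucy1a1 with 1 mouse left out (-0.155 to 0.0057, positive without mouse 2); the cause was not tested. Outside these 4 changes of sign, 53 counts differed by over 1.5 times, and 607 results stayed on the same side of the threshold with the same sign, or, for counts, within 1.5 times, although differences of single genes changed in size. With group order as a number, the adjusted p of Nos1 was 0.742. No paired analysis was possible because the groups held different mice with no pairing between them. With 3 or 4 mice a group, the 95% interval between more and less anxious mice ran from -0.34 to 0.15 for Gucy1b1 and from -0.97 to 0.44 for Prkg1 on the log2 scale, which is the precision this design gave.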

Other observations

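The genes whose log2 CPM followed each member most closely over the 11 mice, among 15838 searched, are given as a description with no test, since they were picked from so many. Nos1 was followed by Gpr101, an orphan G protein-coupled receptor, with r = 0.949 (21.3 to 73.0 CPM), and by Casr, the calcium-sensing receptor, with r = 0.949. Gucy1b1 was followed by Fam49a with r = 0.966 and Crbn with r = 0.956, and Gucy1a1 by Kifap3, a kinesin-associated protein, with r = 0.937 and the phosphatase receptor Ptpro with r = 0.933. Neither subunit was among the 2 genes closest to the other. Nos3 was followed by Eogt (0.942) and Tns2 (0.913), Nos1ap by Pm20d1 (0.952) and Slc9a7 (0.942), and Prkg1 by Cd59b (0.948) and 5330434G04Rik (0.890). Prkg2 was followed by the transcription factor Sp1 (0.871) and Scaf11 (0.870), and Pde5a by H2-Q5 (0.901) and Ppp1r21 (0.897). Over the 11 mice, H2-Q5 ran from 0.136 to 5.26 CPM and Pm20d1 from 0.556 to 4.22 CPM, so both reached low levels.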
